A study of Tachysurus fulvidraco x Tachysurus vachelli with 6 samples.

Results

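The transcript levels of 3 genes that govern sterol regulatory element-binding proteins (SREBPs) or carry sterols, srebf1, insig1 and stard4, were followed through 6 liver libraries of hybrid yellow catfish. The members were the rows of the deposited table with these gene names, and each name occurred once among the 28288 genes of the table. All 3 were among the 11521 genes that were tested. C_liver fish received the basal diet with 0 g/kg Acanthopanax senticosus and T_liver fish the same diet with 4 g/kg, both for 56 days, with 3 libraries per group. All fish were hybrids of a female Tachysurus fulvidraco and a male Pseudobagrus vachellii, entered the trial as juveniles and were starved before their livers were taken. RNA of the same group was combined before the libraries were made, and how many fish a library holds is not given in the sources used here. P values therefore measure only the spread between these libraries. Within a group this spread was far beyond counting noise. Whether it comes from fish, from tanks or from technical steps was not tested. The authors aligned the reads of both parental alleles to the genome of the maternal species.

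SREBPs are transcription factors that are made as membrane proteins of the endoplasmic reticulum. When sterols are scarce, the escort protein SCAP carries them to the Golgi, where the site-1 and site-2 proteases release the active part, which enters the nucleus. In mammals srebf1 encodes the form best known for fatty acid synthesis and srebf2 the form best known for cholesterol synthesis and uptake. The product of insig1 holds the SCAP-SREBP complex in the endoplasmic reticulum when sterols are plentiful, and insig1 is itself a target of SREBPs. The product of stard4 is a small cytosolic carrier of cholesterol with a START domain, and in mammals its gene is also switched on by SREBPs.

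The genes lay on different scaffolds of the deposited annotation, and no other gene of the table overlapped any of them. The gene srebf1 (gene ID 113638078) spanned 1812408 to 1827941 on the minus strand of scaffold NW_020848262.1 and was listed with 8 transcript models. The gene insig1 (113649163) spanned 69531 to 74888 on the plus strand of NW_020847859.1 and had 3 models. The gene stard4 (113643798) spanned 790744 to 793863 on the plus strand of NW_020847786.1 and had 1 model. The deposited annotation placed srebf1 in the insulin signaling and insulin resistance pathways and gave no pathway for the other two.

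Counts per library summed to between 44153673 and 51459627, and the scaling factors of edgeR's TMM method lay between 0.855 and 1.14. The unit of level is CPM, the counts of a gene per 1000000 scaled counts of its library. C_liver replicate 3 stood apart most, being the highest library in 25.2% of all tested genes and the lowest in 26.9%. The liver markers serpina1, fga, fgb, fgg and ambp, the 5 of 9 listed symbols found by name, took 3.39% to 3.84% of the counts in C_liver and 3.82% to 4.62% in T_liver. Of 13 symbols of the exocrine pancreas only cel and cela1 were found by name, and neither was at 0. Together they took 0.000486% to 0.00212% of the counts in C_liver and 0.00326% to 0.0113% in T_liver. Of 4 symbols of the intestine epithelium 3 were found (fabp2, vil1 and cdh17), which took 0.00437% to 0.00552% in C_liver and 0.00285% to 0.00435% in T_liver. Of these fabp2 was at 0 in every library. No symbol of red blood cells or skeletal muscle was found by name. Pancreatic enzymes found by their description, 41 rows of which 10 were at 0 in every library, took 0.0925% to 0.1003% in C_liver and 0.131% to 0.181% in T_liver. Hemoglobins found by description, 26 rows, ranged from 0.0878% to 0.374% in C_liver and from 0.0527% to 0.256% in T_liver. In whole livers, fewer cells of a type and less RNA per cell cannot be told apart.

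The 3 genes were expressed at moderate levels in both groups. FPKM, the fragments per kilobase of transcript per 1000000 mapped fragments, which allow genes of different length to be compared, averaged 25.7 for insig1, 13.3 for stard4 and 12.4 for srebf1 over the 6 libraries, beside a median of 4.58 among all tested genes. The FPKM of insig1 exceeded that of stard4 in every library, by a ratio of 1.17 to 3.16. It exceeded that of srebf1 in all libraries but C_liver replicate 1, where the ratio was 0.841. The order of stard4 and srebf1 changed between libraries, with FPKM ratios from 0.687 in T_liver replicate 2 to 3.16 in T_liver replicate 1, so that these neighbors in the order did not differ beyond their spread.

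**Figure D1:**
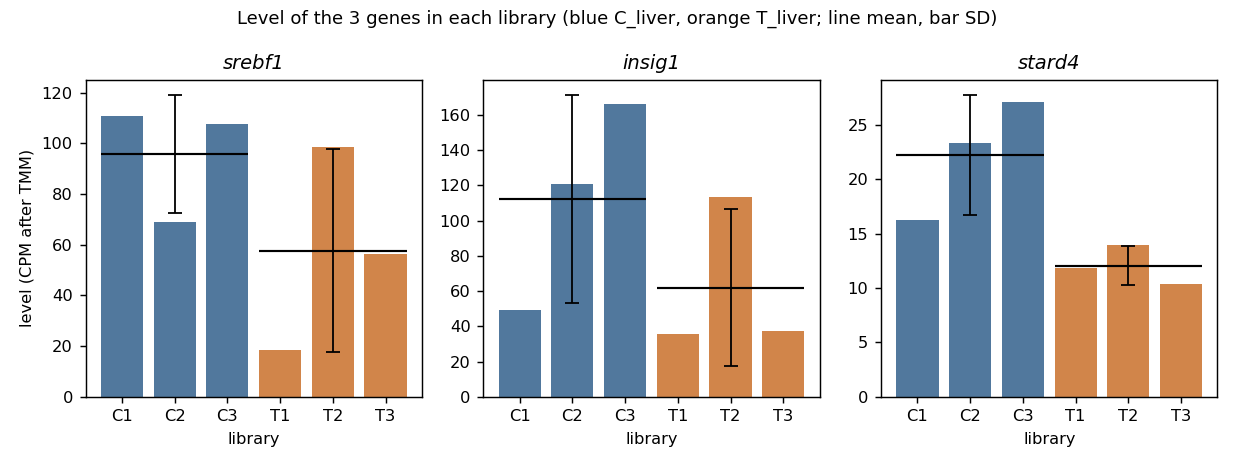
Level in CPM (vertical axes from 0) of srebf1, insig1 and stard4 in C_liver replicates 1 to 3 (blue, C1 to C3) and T_liver replicates 1 to 3 (orange, T1 to T3), with the mean of each group as a line and its SD as an error bar. The highest T_liver library of stard4 (13.9) lies below its lowest C_liver library (16.2), whereas T_liver replicate 2 reaches the C_liver range for srebf1 (98.6) and insig1 (113).

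The level of srebf1 was 111, 69.1 and 108 CPM in C_liver replicates 1, 2 and 3, and 18.3, 98.6 and 56.2 CPM in T_liver replicates 1, 2 and 3. T_liver replicate 1 stood far below the rest, while T_liver replicate 2 lay between the C_liver libraries, so that the groups overlapped. The counts behind these levels were 759 in T_liver replicate 1 and 2998 to 5881 in the other libraries. Counting error at 759 reads gives a level between 17.0 and 19.6 CPM (exact Poisson interval, 95%), which does not reach the next library. These intervals hold counting error alone and take each count as a separate molecule. In some libraries the counts sum to more than the valid reads that the paper reports. The intervals are too narrow where a fragment is counted more than once. The authors state that duplicate reads were removed, and any PCR copies left among the counts could not be told from separate molecules.

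In C_liver srebf1 averaged 95.9 ± 23.3 CPM (SD, n = 3), and in T_liver it averaged 57.7 ± 40.2 CPM (SD, n = 3). The log2 fold change of T_liver relative to C_liver was -0.73 (standard error 0.56, 95% interval -2.04 to 0.58). The quasi-likelihood test of edgeR gave it an unadjusted P of 0.230 and, after Benjamini-Hochberg adjustment over all tested genes, an adjusted P of 0.745. The exact 2-sided permutation test gave p 0.2, where 3 libraries against 3 cannot go below 0.1. The difference was within the spread between libraries.

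The level of insig1 was 49.3, 121 and 166 CPM in C_liver replicates 1, 2 and 3, and 35.4, 113 and 37.3 CPM in T_liver replicates 1, 2 and 3. The libraries fell into a low set (C_liver replicate 1 and T_liver replicates 1 and 3) and a high set (C_liver replicates 2 and 3 and T_liver replicate 2), which both hold libraries of either group. In the high libraries C_liver replicate 3 and T_liver replicate 2 the share of hemoglobin counts was also high, at 0.374% and 0.256%, but in C_liver replicate 2 it was 0.0905%, and its part in the result was not tested. The group means were 112 ± 59.0 CPM (SD, n = 3) and 62.0 ± 44.4 (SD, n = 3). The log2 fold change was -0.86 (standard error 0.60, 95% interval -2.26 to 0.55), and the quasi-likelihood test of edgeR gave an unadjusted P of 0.194 (adjusted P 0.725). The exact 2-sided permutation p was 0.2. The difference was within the spread between libraries, as for srebf1.

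The level of stard4 was 16.2, 23.3 and 27.1 CPM in C_liver replicates 1, 2 and 3, and 11.8, 13.9 and 10.4 CPM in T_liver replicates 1, 2 and 3. The 3 T_liver libraries were the 3 lowest, so that the groups did not overlap. The nearest libraries of the groups were C_liver replicate 1 with 861 counts and T_liver replicate 2 with 629. Their exact Poisson intervals were 15.14 to 17.33 and 12.88 to 15.08 CPM, which nearly met. These intervals are too narrow where a fragment is counted more than once. Whether the gap between these libraries exceeds counting error is therefore not known. The group means were 22.2 ± 5.53 CPM (SD, n = 3) and 12.1 ± 1.80 (SD, n = 3), so that T_liver stood at 0.543 times C_liver in the fitted ratio. The log2 fold change was -0.88 (standard error 0.27, 95% interval -1.51 to -0.25), and the quasi-likelihood test of edgeR gave an unadjusted P of 0.0127 (adjusted P 0.676). The exact 2-sided permutation p was 0.1, the smallest that this design allows.

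A DE gene was defined, with the thresholds of the study, by a log2 fold change of 1 or more in either direction together with an unadjusted P under 0.05. By this rule 0 of the 3 genes were DE genes, beside 3.11% of all tested genes (358, of which 186 or 1.61% were lower in T_liver and 172 or 1.49% higher). The gene stard4 met the P threshold and not that of the fold change, and srebf1 and insig1 met neither. The P threshold alone was met by 6.64% of tested genes, and all T_liver libraries lay below all C_liver libraries in 7.1% of tested genes. After adjustment 0 tested genes, or 0.0%, passed 0.05 in the quasi-likelihood test of edgeR (765 did without adjustment), whereas DESeq2 gave 38 such genes, and stard4 had an adjusted P of 0.354 in it. Over the 16 alternative settings the adjusted P of stard4 ranged from 0.354 to 0.946. The count of 358 DE genes was 628 without C_liver replicate 2 and 643 without T_liver replicate 2. The share of pancreatic transcripts by description was higher in each T_liver library than in any C_liver library. With these transcripts left out of the fit the log2 fold changes of srebf1, insig1 and stard4 were -0.73, -0.86 and -0.88. These rows hold so few counts that leaving them out could hardly move other genes. Whether pancreatic tissue in the samples has a part in the levels was therefore not tested.

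The 3 genes had similar log2 fold changes and unlike spreads. Of all tested genes 7.30% had a lower log2 fold change than srebf1, 5.11% a lower one than insig1 and 4.80% a lower one than stard4. The SD of log2(CPM + 1) among libraries of a group was 0.89 for srebf1 and 0.92 for insig1, beside a median of 0.36 over all tested genes, and 92.7% and 93.1% of tested genes had a smaller one. For stard4 it was 0.29, with 34.7% of tested genes below it. In srebf1 this spread was in T_liver, with an SD of 1.21 against 0.38 in C_liver. In insig1 it was alike in both groups (0.90 in C_liver and 0.93 in T_liver). In stard4 it was 0.36 in C_liver and 0.20 in T_liver. The levels of srebf1 spanned 5.39-fold within T_liver and 1.60-fold within C_liver, and those of stard4 1.34-fold and 1.67-fold.

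**Figure D2:**
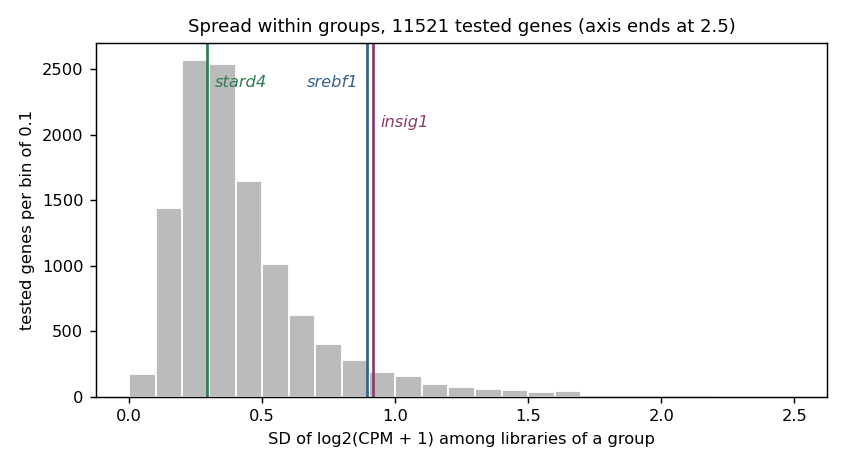
Number of tested genes (vertical axis, bins of 0.1) by the SD of log2(CPM + 1) among libraries of the same group (horizontal axis, both groups combined), with vertical lines at the 3 genes. The line of stard4 (0.29) lies in the bulk of the genes, and the lines of srebf1 (0.89) and insig1 (0.92) lie in its upper tail. The axis ends at 2.5, beyond which 24 genes lie.

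Leaving out single libraries moved the log2 fold changes of srebf1 and insig1 more than that of stard4. Without T_liver replicate 1 the log2 fold change of srebf1 was -0.30, and without T_liver replicate 2 it was -1.34 (unadjusted P 0.0475 in edgeR's quasi-likelihood test), which made srebf1 a DE gene. That of insig1 was -0.45 without C_liver replicate 3, -0.57 without T_liver replicate 1 and -1.61 without T_liver replicate 2, where it became a DE gene as well (unadjusted P 0.0229). The adjusted P was 0.526 and 0.524 there. In that fit 643 of 11521 tested genes were DE genes, beside 358 with all 6 libraries. Over the 16 alternative settings the adjusted P ranged from 0.526 to 0.949 for srebf1 and from 0.524 to 0.951 for insig1. The log2 fold change of stard4 stayed between -1.07 and -0.71, and its unadjusted P stayed under 0.05 with each library left out, the highest being 0.0454. Only without C_liver replicate 1 did stard4 become a DE gene (unadjusted P 0.00709 by edgeR), in a fit with 445 DE genes among all tested genes.

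**Figure D3:**
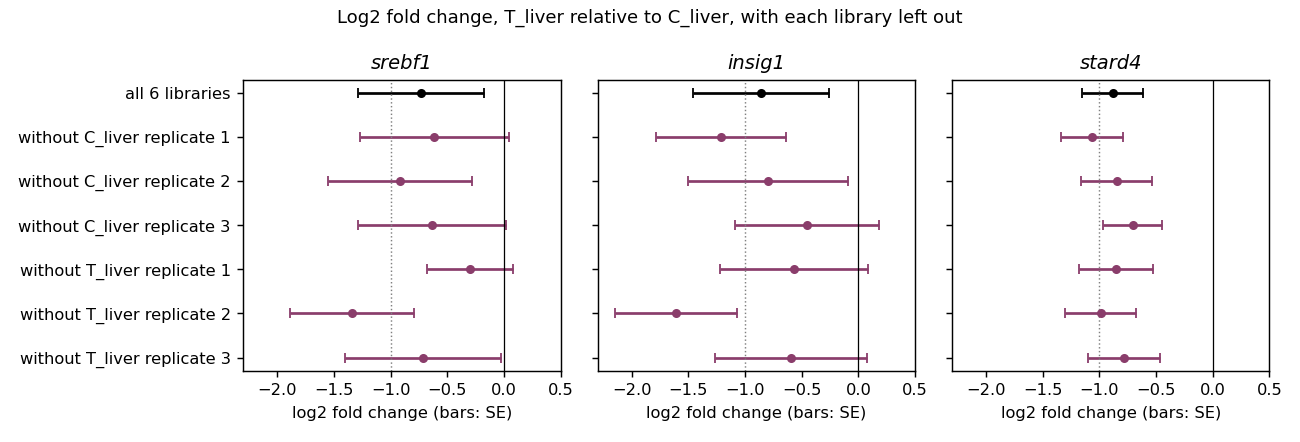
Log2 fold change of T_liver relative to C_liver (horizontal axes, points, with the standard error as bars) of srebf1, insig1 and stard4, with all 6 libraries and without each of the 6. The dotted line marks -1. The points of stard4 lie between -1.07 and -0.71, those of srebf1 between -1.34 and -0.30 and those of insig1 between -1.61 and -0.45.

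The 3 genes ordered the libraries in part alike. T_liver replicates 1 and 3 were the lowest libraries in all 3 genes, and C_liver replicate 3 was the highest in insig1 and stard4 and close behind C_liver replicate 1 in srebf1. As a description over the 6 libraries, which share their scaling and their groups, insig1 and stard4 had a Pearson r of 0.84 and a Spearman correlation of 0.89. With the libraries farthest from the median of insig1 left out, C_liver replicate 3 and T_liver replicate 1, r was 0.68. The r of srebf1 was 0.62 with insig1 (Spearman 0.60) and 0.53 with stard4 (Spearman 0.66). Without T_liver replicates 1 and 3 these were -0.29 and -0.27, so that in CPM both relations rest on these libraries. In FPKM, where the libraries farthest from the median of srebf1 were C_liver replicate 1 and T_liver replicate 1, r without them was 0.78 with insig1 and 0.30 with stard4.

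T_liver replicate 1 was 2.37 below the median of the other libraries on the log2 scale in srebf1, 1.65 below in insig1 and 0.42 below in stard4. T_liver replicate 2 was above that median by 0.51 in srebf1 and 1.18 in insig1, and below it by 0.20 in stard4. C_liver replicate 1 lay 1.18 below it in insig1, and 0.67 above it in srebf1. The same library was thus high in one gene and low in another.

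The list of the SREBP machinery had 12 rows in the table, all tested, and 10 of these were genes other than srebf1 and insig1. Among the 10 there were 0 DE genes in either direction, beside 3.11% of all tested genes, which at this number of genes is near the background. T_liver had the lower level in 7 of the 10, and their median log2 fold change was -0.13, beside 50.4% lower and a median of -0.00 over all tested genes. Their median was 0.07, with 3 of the 10 lower, without T_liver replicate 2. It was -0.03 without C_liver replicate 3 and -0.22 without T_liver replicate 3. The lowest log2 fold changes in the list were those of insig1 and srebf1.

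The escort gene scap was at -0.35 (95% interval -1.23 to 0.54), with 24.8 to 64.9 CPM in C_liver and 26.8 to 39.6 in T_liver. The gene insig2, which encodes the second retention protein, was at -0.10 (-0.63 to 0.42), with 16.6 to 19.4 CPM in C_liver and 13.8 to 18.6 in T_liver. The protease genes mbtps1 and mbtps2 were at 0.31 (-0.22 to 0.85) and 0.30 (-0.29 to 0.88). The groups overlapped in each of these genes.

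No row is named srebf2, but LOC113641935 and LOC113661812 are both described as sterol regulatory element-binding protein 2. The sources used here do not say how a read that fits more than one gene was assigned. LOC113641935 had 86.3, 87.5 and 82.8 CPM in C_liver replicates 1, 2 and 3, and 61.0, 41.6 and 111 in T_liver replicates 1, 2 and 3. LOC113661812 had 76.0, 91.5 and 143 CPM in C_liver and 98.7, 57.2 and 124 in T_liver, in the same order. Both were lowest in T_liver replicate 2, the library in which srebf1 and insig1 were highest within T_liver. Their log2 fold changes were -0.27 (95% interval -1.13 to 0.60) and -0.15 (-1.04 to 0.73). Their FPKM averaged 35.1 and 75.4, beside 12.4 for srebf1.

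Of the genes that turn over the insig1 protein, amfr and rnf139, which encode ubiquitin ligases, were at -0.25 (95% interval -0.77 to 0.27) and -0.20 (-1.07 to 0.67). The ubiquitin-conjugating enzyme gene ube2g2 was at -0.10 (-0.59 to 0.40) and vcp, whose product extracts proteins from the membrane, at 0.00 (-0.71 to 0.72). None of them passed either threshold.

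The START family, whose products share the lipid-binding domain of stard4, had 13 rows, of which 10 were tested, with 0 DE genes, beside 3.11% of all tested genes, which is near the background for so few genes. T_liver had the lower level in 4 of the 10, beside 50.4% of all tested genes, the median log2 fold change was 0.06, and stard4 had the lowest value. Without T_liver replicate 3 the median was -0.25 and stard8 became a DE gene at a higher level in T_liver, and without C_liver replicate 2 the median was -0.07. The median was between 0.03 and 0.13 without any other single library. An unadjusted P under 0.05 was reached by stard4 alone among the 10.

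The groups did not overlap in 3 of the 10, stard4 included, beside 13.1% of all tested genes. They did not overlap in stard8, with 1.4 to 2.4 CPM in C_liver and 2.5 to 4.2 in T_liver (log2 fold change 0.84, 95% interval -0.09 to 1.78). Nor did they in LOC113645157, described as similar to stard13, with 27.0 to 31.2 and 16.6 to 25.6 CPM (-0.39, -0.95 to 0.18). They overlapped in stard13 (0.29), stard10 (0.26), stard7 (0.20), pctp, a phosphatidylcholine carrier gene (-0.59), LOC113659522, described as stard9 (-0.58), and LOC113649547 and LOC113662971, both described as the endosomal sterol carrier stard3 (0.09 and 0.03). The rows star, stard5 and stard9 had a mean FPKM below 1 and were not tested.

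**Figure D4:**
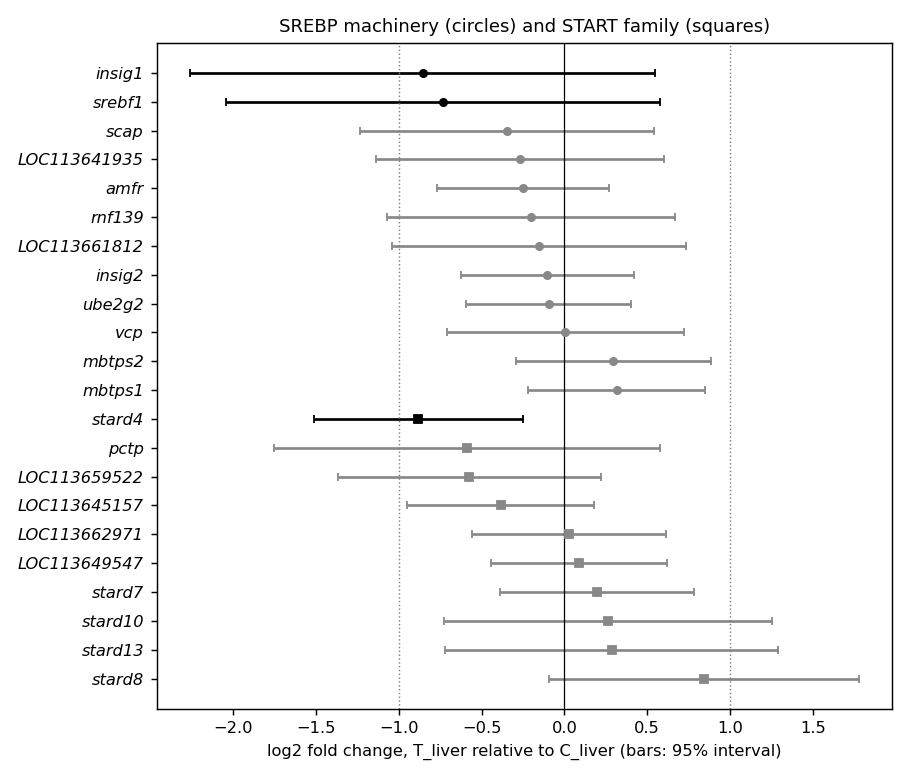
Log2 fold change of T_liver relative to C_liver (horizontal axis, points, with the 95% interval as bars) of the tested genes of the SREBP machinery (circles) and the START family (squares), with srebf1, insig1 and stard4 in black. The dotted lines mark -1 and 1. Of the genes drawn only stard4 has an interval that does not include 0 (-1.51 to -0.25).

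The genes of sterol synthesis enzymes are well-known targets of SREBPs in mammals. In this list 7 of 20 tested genes were DE genes, all lower in T_liver (1.61% of all tested genes): hmgcs1, mvd, mvk, idi1, msmo1, hsd17b7 and the EBP-like gene ebpl. T_liver had the lower level in all 20, and the median log2 fold change was -1.82. Without C_liver replicate 3 the median was -0.45, the level was lower in 16 of the 20, and 2 were DE genes. DESeq2 called 11 of the 20, with 1 at an adjusted P under 0.05, and limma called 4 with either pseudocount. Without T_liver replicate 1 or T_liver replicate 2 there were also 2, and without C_liver replicate 1 there were 13. Of all 11521 tested genes, 250 were called lower in T_liver by DESeq2, and 107 and 184 by limma (pseudocounts 1 and 0.1). Without C_liver replicates 1 and 3 in turn these were 278 and 87, and without T_liver replicates 1 and 2 in turn 154 and 287. Where 2 were left, they were ebpl and hsd17b7. The gene ebpl entered the list only through the suffix l allowed on the name ebp, and not as a listed enzyme of sterol synthesis. C_liver replicate 3 was the highest library in all 20, beside 25.2% of all tested genes, and T_liver replicate 2 was the lowest in 15, beside 13.2%.

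In T_liver replicate 2 the genes srebf1 and insig1 stood high and most of the sterol synthesis genes low. The gene sqle, squalene epoxidase, had 36.0, 103 and 688 CPM in C_liver replicates 1, 2 and 3 and 61.8, 2.1 and 133 in T_liver replicates 1, 2 and 3. Only 93 reads of sqle were counted in T_liver replicate 2, where insig1 had 5104 and srebf1 4444. With a log2 fold change of -2.07 (unadjusted P 0.191 by edgeR) sqle was not a DE gene. That srebf1 and insig1 were high and these genes low rests on 1 library and was not tested.

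**Figure D5:**
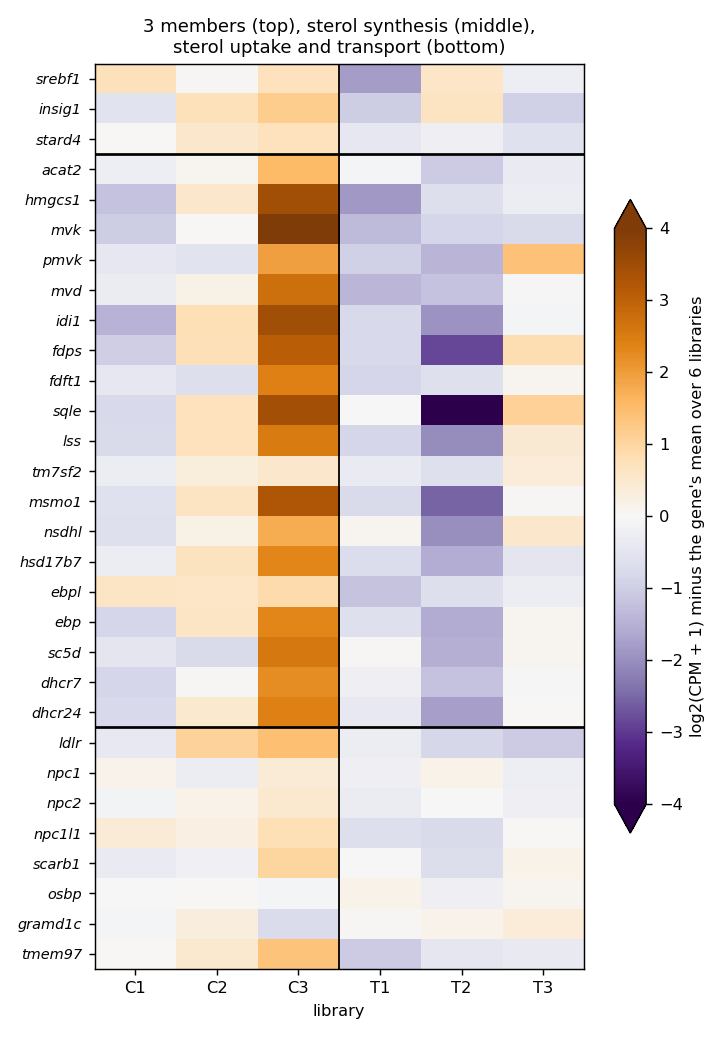
Deviation of log2(CPM + 1) from the mean of the same gene over the 6 libraries (color, ending at -4 and 4), for the 3 genes, 19 genes of the sterol synthesis list and the sterol uptake and transport list (rows) in C_liver replicates 1 to 3 and T_liver replicates 1 to 3 (columns). C_liver replicate 3 is the highest library of all 19 sterol synthesis genes drawn, and in T_liver replicate 2 sqle (-4.38) lies beyond the color range while srebf1 and insig1 lie above their means.

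The likeness of the 3 genes to the sterol synthesis genes differed. Over the 6 libraries the Pearson r of stard4 with the 20 genes had a median of 0.66 and was above 0 in all 20, from 0.28 with pmvk to 0.83 with hsd17b7. The median was 0.43 for insig1 (19 of 20 above 0) and 0.18 for srebf1 (17 of 20). Over all tested genes the median r was 0.02 for stard4, 0.02 for insig1 and 0.01 for srebf1. It was above 0 in 50.98%, 50.85% and 50.79% of them, in the same order. All of these values share C_liver replicate 3, where the sterol synthesis genes were highest, and no test was made of them.

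In the list of sterol uptake and transport 2 of 8 tested genes were DE genes, both lower in T_liver (1.61% of all tested genes). These were ldlr, the receptor of low-density lipoprotein, and tmem97, which encodes a sterol-binding membrane protein. The level of ldlr was 43.7, 118 and 158 CPM in C_liver replicates 1, 2 and 3 and 47.6, 32.1 and 27.4 in T_liver replicates 1, 2 and 3. It was lower in T_liver by a log2 fold change of -1.58, with a standard error of 0.48 (unadjusted P 0.0130 by edgeR). Its Pearson r with stard4 was 0.93, the highest in the list. The level of tmem97 was 46.8, 66.1 and 122 CPM in C_liver and 22.2, 33.4 and 36.1 in T_liver, and its log2 fold change was -1.35, with a standard error of 0.40 (unadjusted P 0.0109). The cholesterol uptake transporter gene npc1l1 met the P threshold only (-0.98, unadjusted P 0.0147). It became a DE gene without C_liver replicate 1, without C_liver replicate 2, without T_liver replicate 3 and with a replicate block. In these fits 278, 348, 191 and 171 of all tested genes were called lower in T_liver, in the same order. The median of the list was -0.45 and became -0.10 without C_liver replicate 3, where ldlr was the only DE gene, and with each other library left out it lay between -0.65 and -0.37.

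In the fatty acid synthesis list 2 of 11 tested genes were DE genes, both lower in T_liver (1.61% of all tested genes), with a median log2 fold change of -0.38. The 11 include insig2 (-0.10), which is also counted in the SREBP machinery list and does not encode an enzyme of fatty acid synthesis. The gene fasn, fatty acid synthase, was at -2.99, with a standard error of 0.91 (unadjusted P 0.0128 by edgeR), with 71.3, 48.7 and 419 CPM in C_liver replicates 1, 2 and 3 and 12.8, 15.5 and 39.6 in T_liver. The gene fads2, a fatty acid desaturase, was at -1.30 (unadjusted P 0.0376). Without C_liver replicate 3 or T_liver replicate 1 only fasn was a DE gene, and the median without C_liver replicate 3 was -0.12. Without T_liver replicate 2 the DE genes were fasn and elovl5 and the median was -0.21, and without T_liver replicate 3 the median was -0.76. Without C_liver replicate 1 the DE genes were acly, fads2 and fasn, and without C_liver replicate 2 they were acly, fasn and gpam. DESeq2 called 4 genes (acly, fads2, fasn and gpam), and limma with either pseudocount also called 4 (elovl5, fads2, fasn and gpam). Of all 11521 tested genes 348 were called lower without C_liver replicate 2. For most of the other settings this number is given with the sterol synthesis list. The gene of this list most like srebf1 over the 6 libraries was gpam, which encodes an enzyme of the first step of glycerolipid synthesis (Pearson r 0.95), and the least like was acacb (-0.45). An r above 0.8 with srebf1 was reached by 3 of the 11, beside 5.17% of all tested genes, and no test was made of these values.

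In mammals the nuclear receptor LXR switches on srebf1 when oxysterols are plentiful. A list of nuclear receptors and LXR targets held 5 tested genes, nr1h3, nr1h4, abcg5, abcg8 and lpcat3. Of these 0 were DE genes, beside 3.11% of all tested genes, which is near the background for so few genes. Their median log2 fold change was -0.17. This was 0.02 without C_liver replicate 2, 0.03 without T_liver replicate 1, -0.09 without C_liver replicate 3, -0.08 without T_liver replicate 3, -0.33 without C_liver replicate 1 and -0.45 without T_liver replicate 2. The LXR gene nr1h3 itself had 12.6, 25.3 and 22.4 CPM in C_liver replicates 1, 2 and 3 and 13.0, 28.8 and 11.3 in T_liver replicates 1, 2 and 3. Its low and high libraries were the same as those of insig1 (Pearson r 0.91 over the 6 libraries). They were not those of srebf1, which was highest in C_liver replicate 1, at 111 CPM, where nr1h3 was low. The bile acid receptor gene nr1h4 had an r of 0.93 with srebf1, over a narrow range of 140 to 173 CPM. The sterol export genes abcg5 and abcg8 were at -0.00 and -0.53, and lpcat3, a phospholipid-remodeling enzyme gene, at -0.17.

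By Pearson r of log2(CPM + 1) over the 6 libraries, the 5 of 11520 other tested genes most like each gene were taken as a description. For srebf1 these were LOC113663719 (an uncharacterized protein), LOC113644071 (described as similar to the phosphatase CDC14A), snrpa, LOC113661824 and dcps, with r from 0.992 to 0.994. In all 5 T_liver replicate 1 was lowest and T_liver replicate 3 next. For insig1 they were lyrm2, LOC113640862 (similar to a vitamin D3 hydroxylase-associated protein), LOC113641176 (similar to lysoplasmalogenase), ppp1r3c, a glycogen-targeting subunit of protein phosphatase 1, and ubl4a, with r from 0.979 to 0.9898. For stard4 they were sf3b5, LOC113645471 (similar to a mitogen-activated protein kinase), tspan6, bcar1 and LOC113639904 (similar to a CDGSH iron-sulfur protein), with r from 0.983 to 0.998. In all 5 genes most like stard4 the T_liver libraries were the 3 lowest, which the choice by likeness favors. None of these 15 genes was a member of the lists.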

How the data were processed

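Poly(A) RNA of 3 C_liver and 3 T_liver libraries was sequenced. The authors removed invalid reads, among them duplicate and low-quality reads, and mapped the rest to the T. fulvidraco genome by HISAT. They deposited counts per gene, as whole numbers, beside FPKM values, in which genes without a count are listed at 0.0001. In C_liver replicates 1 and 3 and T_liver replicate 3 the counts sum to more than the valid reads that the paper reports. The counts are thus not numbers of separate fragments, and how they were derived is not given in the sources used here. The submitters' processing notes name HISAT2 2.0, StringTie 1.3.0, Bowtie 0.12.2 and a mouse build, which cannot be the build of these scaffolds. Build and counting tool are otherwise not given in the sources used here.

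Of 20547 genes with a count, the 11521 whose FPKM averaged 1 or more were tested. T_liver was compared with C_liver by edgeR 4.0.16 (TMM, quasi-likelihood test, no covariate, R 4.3.3). The F statistic of each gene gave its standard error and 95% interval. Exact 2-sided permutation tests were made with scipy 1.17.1 on log2 CPM. Alternatives were DESeq2 1.42.0, limma 3.58.1 on log2(FPKM + 1) and log2(FPKM + 0.1), other scalings and filters, a replicate block and each library left out. The fits were tested on simulated counts. No test was made of lists.

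The members and lists were chosen with earlier results of these data known. Lists were matched by gene name, with a suffix a, b or l allowed, and for the SREBP machinery and the START family also by description. Named are the 3 members, all rows of these families, DE genes of the other lists with a few further members, and the 5 genes most like each member. The markers by description and npc1l1, nr1h3, nr1h4, acly, elovl5, gpam and stard8 as singled out were chosen after their values were seen. Libraries of a group differed far beyond counting noise and were kept as separate replicates. Some genes counted in the lists are not reported here by name. Sequences and promoters of the genes were not analysed here. At 44153673 to 51459627 counts per library, the limits of the exact Poisson interval of a member lay at most 8.95% from its level, as the mean of both sides. This takes each count as a separate molecule, and with fragments counted more than once the counting error is larger.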

Additional observations from a re-analysis of the deposited data

How the results depend on the processing

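All log2 fold changes of srebf1, insig1 and stard4 were below 0 in all 16 alternative settings. Of these settings 1, without the transcripts of pancreatic enzymes, was added after the data were seen and could hardly differ from the main fit. Each gene kept its side of the DE criteria in 15 of the 16 and was a DE gene in 1. With single libraries left out the log2 fold changes ranged from -1.34 to -0.30 for srebf1, from -1.61 to -0.45 for insig1 and from -1.07 to -0.71 for stard4, and the number of DE genes from 248 to 643. The number of DE genes was 774 with no filter on low values, 175 with a mean FPKM of at least 5, 542 with edgeR's filterByExpr and 190 with limma on log2(FPKM + 1), where the filters changed the number of genes tested. With a mean FPKM of at least 5 the share of DE genes at higher levels in T_liver was 57.1% instead of 48.0%, and with limma on log2(FPKM + 0.1) it was 39.1%. It was 37.5% without C_liver replicate 1 and 64.9% without C_liver replicate 3. Other scalings moved the median log2 fold change of all genes by 0.013 (edgeR's RLE factors, the size-factor method of DESeq2) and -0.013 (total counts).

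Same-numbered libraries did not deviate together (r of their deviations from the group means -0.09, 0.04 and -0.13), and nothing in the labels pairs them. With a replicate block the number of DE genes was 329 and the log2 fold changes were -1.001 for srebf1, -0.89 for insig1 and -0.86 for stard4, and 0 of the 3 were DE genes. In FPKM the order within groups changed for stard4 (C_liver replicate 2 highest, T_liver replicate 1 lowest), and its groups still did not overlap. With 3 libraries per group the 95% intervals of the log2 fold change were wide, from -2.04 to 0.58 for srebf1 and from -2.26 to 0.55 for insig1.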

Other observations

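Rows of the lists with a mean FPKM below 1 were not tested. The gene mylip, whose product marks the receptor of low-density lipoprotein for degradation, had 3.5, 2.6 and 2.3 CPM in C_liver replicates 1, 2 and 3 and 1.2, 1.3 and 1.6 in T_liver replicates 1, 2 and 3, so that its groups did not overlap. With no filter on low values its log2 fold change was -1.08 (unadjusted P 0.0391, adjusted P 0.773 by edgeR), which made it a DE gene. The gene stard5, another small START carrier, had 15.0 CPM in C_liver replicate 3 and 2.3 to 4.8 in the other libraries. The gene star, the carrier of cholesterol to mitochondria in steroid-making cells, had 133 counts in all libraries together.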
